A study of Mus musculus with 36 samples.

Results

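The growth of the mouse liver from adolescence into adulthood was examined by comparing 3 livers of Day 30 with 6 later livers, 3 of Day 45 and 3 of Day 60. These 9 samples belong to a series of 36 livers of male C57BL/6 mice (C57BL/6J in the study's methods) taken at 12 ages, 3 at each age. All mice were untreated, were fed standard chow, and by the study's methods were drawn at random from multiple litters and killed at the same hour of the morning after weaning. Whole liver was used, so the RNA of every cell type of the organ is mixed in each value. mRNA expression was measured by RNA-Seq of polyadenylated RNA and is given as FPKM (fragments scaled by exon length and by mapped reads), a level per transcript length and library size. Of 21889 gene symbols, 8071 had a mean of at least 1 FPKM at Day 30 or over Days 45 and 60 together and were compared. Of these, 220 reached 1 FPKM only at Day 30 and 364 only over the later ages.

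At Day 30 a male mouse is recently weaned and still growing, and at Day 60 it is sexually mature. During this interval hepatocyte division subsides as the liver reaches its adult size. The pulses of pituitary growth hormone take on the male rhythm, which acts in hepatocytes through the transcription factor Stat5b and separates the male from the female pattern of liver genes, among them cytochromes P450, sulfotransferases and the major urinary proteins that carry pheromones into the urine. Blood formation, a function of the fetal liver, has by then moved to the bone marrow and spleen.

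Albumin (Alb), the main plasma protein made by hepatocytes, lay between 28499 and 38030 FPKM in all 9 livers, and none of the 6 hepatocyte markers except Apoa1 passed the test between Day 30 and the later ages. Xist was at or near 0 and the Y-linked gene Eif2s3y was expressed in each library, as the label male requires. Relative depth, read from the steps of the lowest values, was between 0.950 and 1.14 in the 9 libraries, as a ratio to the others.

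Markers of the exocrine pancreas, the gland beside the liver that makes digestive enzymes, summed to 5266 FPKM in Day 45 replicate 1 and to 21913 FPKM in Day 60 replicate 1, against 0.456 to 40.2 FPKM in the other 7 libraries. Long transcripts were low in Day 30 replicate 1, where expression fell by 0.374 on the log2 scale for each doubling of transcript length, and in Day 45 replicate 3, where it fell by 0.160. In the other 7 libraries this trend lay between 0.0236 and 0.141. Replicates of Day 30 spread more than those of any other age, with a median SD of 0.309 (log2) per gene against 0.143 to 0.233 at the other 11 ages.

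**Figure D1:**
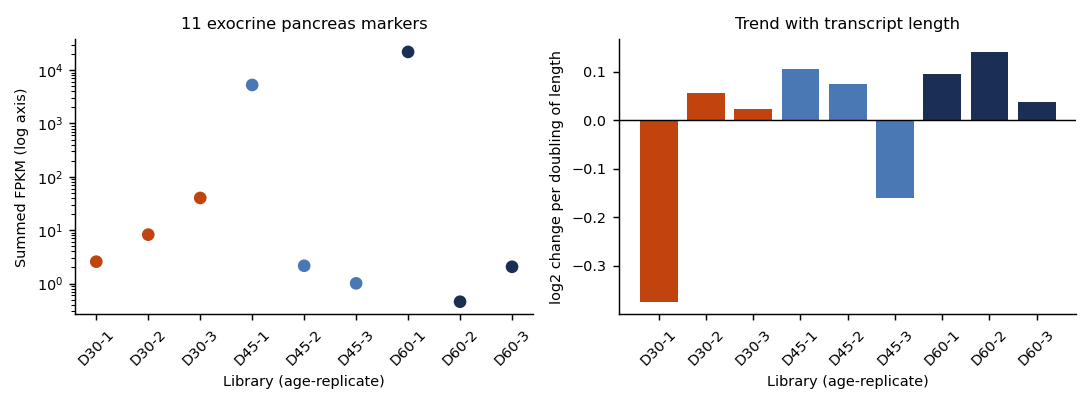
Left, summed FPKM of 11 exocrine pancreas markers on a log axis, and right, the log2 change in expression per doubling of transcript length, for each of the 9 libraries (age-replicate, coloured by age). The first replicates of Day 45 and Day 60 stand at 5266 and 21913 FPKM, and the first replicate of Day 30 and the third of Day 45 stand at -0.374 and -0.160.

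Between Day 30 and Days 45 and 60, 360 of the 8071 genes passed an adjusted p of 0.05 (limma on log2(FPKM + 1), 1 mean per age, Benjamini-Hochberg over all genes tested). At the later ages 129 genes (1.6%) were higher and 231 (2.86%) were lower, and the median difference over all tested genes was 0.05 (log2). All 6 later samples lay above all 3 of Day 30 for 117 genes (1.45%) and below them for 421 (5.22%). Among the genes that passed the test, 59 higher and 195 lower ones were separated in this way. This model shares 1 estimate of the spread over all 12 ages, which is smaller than the spread of Day 30 itself. Fitted to the 9 samples alone, 86 genes passed (20 higher, 66 lower), 85 of them among the 360. This split depended on single Day 30 livers. Without Day 30 replicate 1, 211 genes passed (52 higher, 159 lower), and without Day 30 replicate 2 the larger share was higher (191 higher, 168 lower). Without both pancreas-rich libraries and both libraries low in long transcripts, 133 passed, 120 of them among the 360. When each library's trend with transcript length and GC content was removed the split became 194 higher and 203 lower.

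Taken singly, the later ages differed in number of calls. Day 45 against Day 30 gave 28 higher (0.347%) and 87 lower genes (1.08%), and Day 60 against Day 30 gave 239 higher (2.96%) and 209 lower genes (2.59%). The direction of the second split depended on scaling, with 151 higher and 303 lower genes when each library was scaled to the same summed FPKM and 267 higher and 336 lower with a common upper quartile. For Day 45 against Day 30 the common upper quartile gave 43 higher and 74 lower genes, and a pseudocount of 0.1 gave 19 and 122.

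Genes of cell division made up the clearest group that fell. Of 27 mitosis genes on the list all were in the table, but 13 had 1 FPKM at either age and could be tested, all of them only through Day 30, so that their selection favoured a fall. Of those 13, 12 were lower at Days 45 and 60 and none higher, with a median difference of -0.99. Over all 8071 tested genes, of which 220 entered only through Day 30, 2.86% were lower and the median was 0.05. Because of that selection these values are not a like background for the 13. Over all 27 members, tested or not, 25 had every later sample below every Day 30 sample. This share was 5.22% over the 8071 tested genes, and was not computed for genes below the filter. With the 9 samples alone 12 members were called lower as well, and also with the 4 libraries named above left out.

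Cdc20, which activates the ligase that starts anaphase, was at 5.75, 4.84 and 4.95 FPKM at Day 30. It was at 0.193, 0.207 and 2.31 FPKM at Day 45 and at 0.276, 0.131 and 0.295 FPKM at Day 60. The later mean was 0.110 times that of Day 30, and the log2 difference was -2.10 ± 0.23 (SE, adjusted p = 2.56e-07). At Day 45 replicates 1 and 2 lay within the range of Day 60, and replicate 3, a library low in long transcripts, lay between the ages.

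Birc5 (survivin), a subunit of the chromosomal passenger complex, was at 7.19, 4.36 and 4.28 FPKM at Day 30. At Day 45 it was at 0.438, 0.136 and 1.60 FPKM and at Day 60 at 0.251, 0.200 and 0.469 FPKM, a difference of -2.08 ± 0.22 (log2, SE, adjusted p = 1.94e-07). Ube2c, the E2 enzyme of the same anaphase ligase, fell by 1.78, the mitotic kinase Plk1 by 1.32 and Cdk1, the kinase that drives entry into mitosis, by 0.96 on the log2 scale. Outside the list, Cdca3, which triggers mitotic entry, fell by 1.88, Cenpm, a centromere protein, by 1.47, and Stmn1 (stathmin), which destabilises microtubules, by 1.71. Cdca3 and Cenpm were also tested only through Day 30, so that their selection favoured a fall. In each of the 7 genes from Birc5 to Stmn1 Day 45 replicate 3 was the highest of the later samples. For Stmn1 its 7.06 FPKM came close to the lowest Day 30 value of 8.44 FPKM.

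Mki67, a common marker of cycling cells, was too low to be tested, at 0.101 to 0.287 FPKM at Day 30 and 0.0151 to 0.0562 FPKM later. Summed over the 27 mitosis genes, expression was 34.9, 36.2 and 38.4 FPKM at Day 30, between 3.16 and 15.7 FPKM at Day 45 and between 3.96 and 6.24 FPKM at Day 60. In the days before, the mean sum had been 30.1 FPKM at Day 20 and 53.05 FPKM at Day 25. Day 30 thus belonged with the preceding ages and not with the adult ones in this sum. Because whole liver was sampled, fewer dividing cells and less of these mRNAs in each cell cannot be told apart.

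Promoters of 4 genes of this group are shown because mitotic genes are known to share a CCAAT box, bound by NF-Y, and the cell cycle homology region TTTGAA, bound by the DREAM complex, while replication genes are known for E2F sites. The sequences are from RefSeq (GRCm38.p6), 250 bases before to 50 after the transcription start, 5′ to 3′ on the strand of the gene. Capitals mark a match on either strand to CCAAT, to TTTGAA or to the E2F-type letters TTCCCGC or TTGGCGC. Cdc20 is at chr4:118437294-118437593 (minus strand), Plk1 at chr7:122159185-122159484 (plus), Ube2c at chr2:164769679-164769978 (plus) and Mcm6 at chr1:128359656-128359955 (minus).
Cdc20: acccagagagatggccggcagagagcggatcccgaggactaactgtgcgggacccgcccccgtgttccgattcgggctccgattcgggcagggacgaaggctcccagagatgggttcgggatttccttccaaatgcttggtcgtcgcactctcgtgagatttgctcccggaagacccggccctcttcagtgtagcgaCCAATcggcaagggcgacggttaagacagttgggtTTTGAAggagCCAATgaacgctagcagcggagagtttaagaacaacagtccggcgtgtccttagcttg
Plk1: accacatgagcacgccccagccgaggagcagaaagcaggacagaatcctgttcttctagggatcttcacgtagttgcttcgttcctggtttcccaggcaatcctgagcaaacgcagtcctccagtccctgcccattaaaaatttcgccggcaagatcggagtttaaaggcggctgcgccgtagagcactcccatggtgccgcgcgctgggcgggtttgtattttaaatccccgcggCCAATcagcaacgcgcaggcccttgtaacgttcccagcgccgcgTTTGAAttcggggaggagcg
Ube2c: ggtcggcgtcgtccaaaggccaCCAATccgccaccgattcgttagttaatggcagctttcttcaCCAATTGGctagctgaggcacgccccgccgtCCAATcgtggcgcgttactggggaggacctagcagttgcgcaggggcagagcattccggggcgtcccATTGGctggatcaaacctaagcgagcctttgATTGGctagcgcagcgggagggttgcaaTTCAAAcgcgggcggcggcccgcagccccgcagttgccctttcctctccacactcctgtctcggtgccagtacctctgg
Mcm6: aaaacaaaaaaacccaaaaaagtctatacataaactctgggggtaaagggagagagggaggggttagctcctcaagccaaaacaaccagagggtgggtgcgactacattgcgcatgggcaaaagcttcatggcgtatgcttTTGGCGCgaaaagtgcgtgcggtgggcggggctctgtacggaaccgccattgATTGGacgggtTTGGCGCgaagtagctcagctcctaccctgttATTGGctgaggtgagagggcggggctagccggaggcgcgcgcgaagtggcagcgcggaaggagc

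In Cdc20 the letters TTTGAA began 18 bases before the start, between a CCAAT at 53 and one at 8 bases before it. Plk1 held 1 CCAAT at 14 bases before the start and TTTGAA at 31 after it. Ube2c held 6 matches to CCAAT, of which a forward and a reverse one overlap, and TTTGAA on the opposite strand. Mcm6 held TTGGCGC at 109 and at 46 bases before the start and CCAAT at 2 places on the opposite strand, with no TTTGAA in this window. Birc5 held none of these letters in its window. A promoter was found for 23 of the 27 mitosis genes, of which 18 (78.3%) held CCAAT, 17 (73.9%) TTTGAA and 15 (65.2%) both. Of the 27025 genes with a promoter in the table, 41.1% held CCAAT, 20.2% TTTGAA and 7.97% both. For DNA replication, 24 of 28 genes had a promoter, and 14 (58.3%) held TTCCCGC or TTGGCGC, against 7.79% of all genes. Over the 5814 of 8071 tested genes that had a promoter, the shares were 43.6% for CCAAT, 14% for TTTGAA, 5.64% for both and 13.5% for TTCCCGC or TTGGCGC. The Stat5-type letters TTCNNNGAA were searched as well, but promoters were found for only 11 of 17 male-predominant, 20 of 29 female-predominant and 13 of 19 major urinary protein genes, under 80% of each list, so that nothing is read from them. They were in 0, 5 and 0 of these promoters and in 9.55% of all. A match is a description of letters in this window and says nothing of binding.

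DNA replication genes fell as well, but less far. Of 28 members 20 were tested, and 12 were lower (background 2.86%) and none higher, with a median difference of -0.56. The selection favoured a fall for the 7 of the 20, Gins2 among them, that were tested only through Day 30. Over all 28, tested or not, every later sample lay below every Day 30 sample in 16, beside 5.22% of the 8071 tested genes. With the 9 samples alone 6 were called lower, and 4 with the 4 libraries left out.

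Mcm6, a subunit of the replicative helicase, was at 4.80, 7.08 and 7.51 FPKM at Day 30 and at 1.53, 1.84 and 2.49 FPKM at Day 45. At Day 60 it was at 1.33, 1.21 and 1.94 FPKM, and the difference was -1.45 ± 0.22 (log2, SE, adjusted p = 9.41e-05). Rrm2, the regulated subunit of ribonucleotide reductase, was at 2.68 to 3.15 FPKM at Day 30 and at 0.511 to 1.08 FPKM later. It fell by 1.24 on the log2 scale, Mcm5, another helicase subunit, by 1.13, and Gins2, which joins the helicase at the fork, by 0.91. The call of Mcm5 was lost without Day 30 replicate 3 (adjusted p = 0.0757).

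Pcna, the sliding clamp of DNA polymerase, kept more of its level, with 3.49, 5.18 and 3.92 FPKM at Day 30 against 1.75 to 3.31 FPKM later. Its difference of -0.53 was called in the full comparison (adjusted p = 0.0354) but not without Day 30 replicate 2 (0.153), Day 30 replicate 3, Day 45 replicate 1 or Day 60 replicate 1. Mcm2, with 0.984 to 1.85 FPKM at Day 30 and 0.650 to 1.09 FPKM later, did not pass (adjusted p = 0.388). The replication sum lay between 54.6 and 67.9 FPKM at Day 30, between 27.3 and 40.1 at Day 45 and between 28.6 and 37.9 at Day 60.

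**Figure D2:**
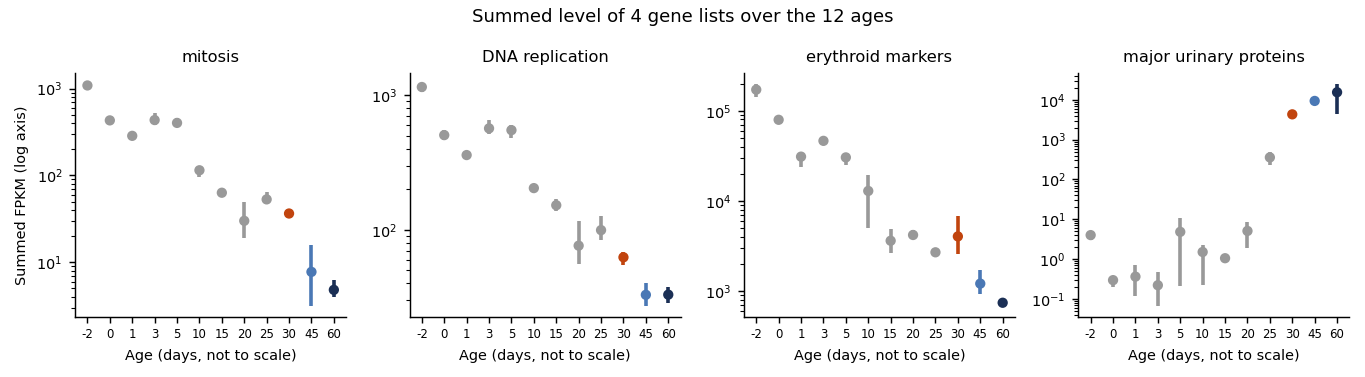
Summed FPKM (log axis) of the mitosis, DNA replication, erythroid and major urinary protein lists at each of the 12 ages (day -2 is before birth, ages not to scale), with points for the mean of 3 livers and lines from the lowest to the highest. Day 30 is orange, Day 45 light blue, Day 60 dark blue and other ages are grey. The mitosis sum had a mean of 36.5 FPKM on Day 30 and of 4.82 on Day 60, and the major urinary protein sum of 4334 and 15555 FPKM.

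Haemoglobin mRNA was lower at the later ages. Of 11 erythroid markers 10 were in the table and 5 were tested, and 4 of these, all globins, were lower (background 2.86%). One of the 4, Hbb-b2, was tested only through Day 30. Hba-a1 (alpha globin) was at 4970.3, 2136 and 2073 FPKM at Day 30, at 768, 664 and 1354 FPKM at Day 45 and at 542, 505 and 536 FPKM at Day 60. It fell by 2.04 ± 0.32 (log2, SE, adjusted p = 0.000102), and its near copy Hba-a2, which may share reads with it, by 2.16. Hbb-b1 (beta globin) was at 294 to 634 FPKM at Day 30 and at 68.2 to 193 FPKM later, a fall by 1.97, and Hbb-b2 fell by 1.17. Day 30 replicate 1 was the highest sample for each of the 4, and without it Hba-a2 (adjusted p = 0.324) and Hbb-b2 (0.455) were not called, while Hba-a1 (0.00437) and Hbb-b1 (0.00919) were. The call of Hbb-b2 was also lost without Day 45 replicate 1 or 2 or Day 60 replicate 1 or 2. With the 4 libraries left out only Hba-a1 was called (0.00747). Alas2, the erythroid enzyme of haem synthesis, was at 60.2 to 86.3 FPKM in all 9 livers, with a difference of -0.05 (adjusted p = 0.911). It stood at a like level in every liver while the globins did not.

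Other blood cell markers are given beside these values, and those of T and NK cells, B cells and neutrophils were low. The 11 tested markers of Kupffer cells, the macrophages of the liver, gave no call, with a median of -0.46 and a summed level of 206 to 262 FPKM at Day 30 and 127 to 197 FPKM later. The defining marker Clec4f was at 23.2, 44.8 and 28.1 FPKM at Day 30 and at 18.2 to 29.7 FPKM later (adjusted p = 0.327). Of 15 T and NK cell markers 2 were tested, and 1, the chemokine Ccl5, fell by 0.88 on the log2 scale, a call lost without Day 30 replicate 1 (adjusted p = 0.165). The sum of these 15 went from 8.94 to 12.0 FPKM at Day 30 to 4.16 to 6.68 FPKM later. For neutrophils 2 of 8 markers were tested, both only through Day 30, with no call. The sum of the 8 went from 3.44 to 7.78 FPKM at Day 30 to 1.16 to 3.01 FPKM later. Every later sample lay below every Day 30 sample in 5 of 8 neutrophil, 6 of 15 T and NK cell, 3 of 12 Kupffer cell and 0 of 5 B cell markers. This share was 5.22% over the 8071 tested genes, and was not computed for genes below the filter. B cell markers summed to 1.23 to 3.12 FPKM in all 9. Their part in the differences described here was not tested.

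**Figure D3:**
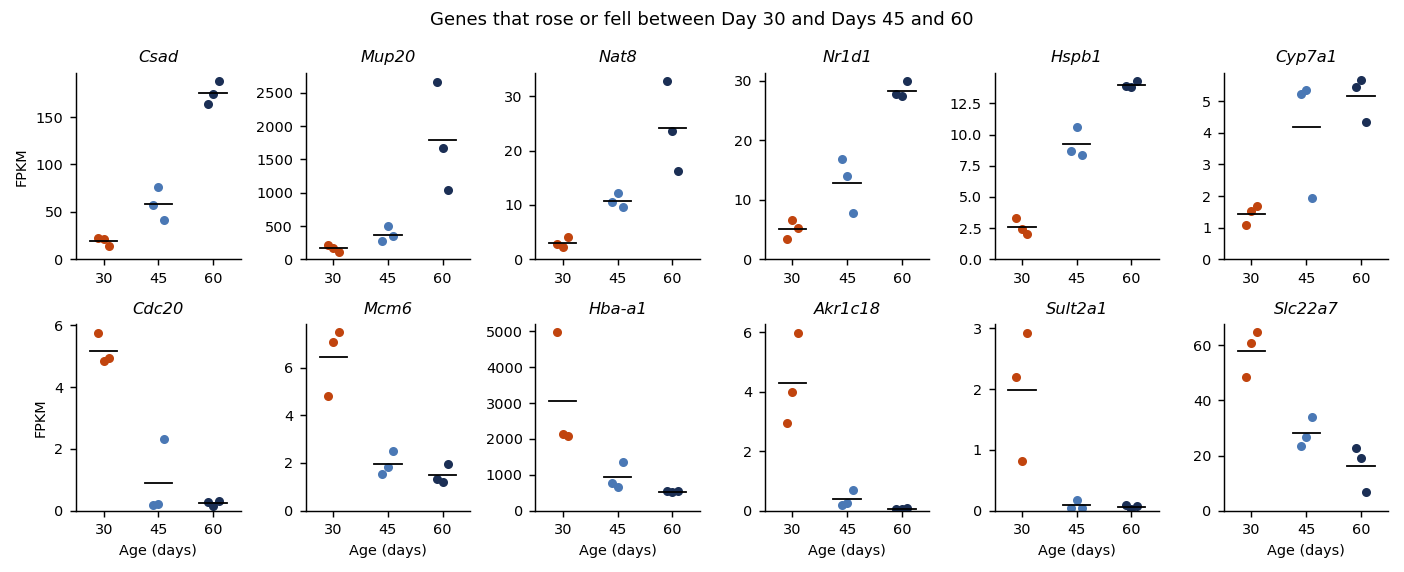
FPKM of 12 genes in each of 3 livers at Days 30, 45 and 60 (points, linear axes from 0), with the mean of each age as a line. The upper row holds genes that rose, such as Csad with means of 19.3 (Day 30) and 175 FPKM (Day 60), and the lower row genes that fell, such as Akr1c18 with 4.30 and 0.0566 FPKM. Akr1c18, Cdc20 and Sult2a1 could be tested only through Day 30.

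Among the genes that rose, the largest difference on the log2(FPKM + 1) scale was that of Csad, cysteine sulfinic acid decarboxylase, which makes the precursor of the taurine used to conjugate bile acids. It lies on chromosome 15 (NCBI37/mm9, 102007429 to 102019474, minus strand) and was at 22.5, 21.2 and 14.2 FPKM at Day 30, at 57.7, 76.1 and 41.6 FPKM at Day 45 and at 163, 174 and 188 FPKM at Day 60. The 3 ages did not overlap, and the later mean was 6.05 times that of Day 30 (2.34 ± 0.20, log2, SE, adjusted p = 5.04e-09). By the ratio of mean FPKM, Mup1 (8.64), Mup6 (7.6) and Mup20 (6.32) rose further. Csad had been at 6.00 FPKM at Day 20 and 21.1 FPKM at Day 25.

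Genes of bile acid handling shared this direction only in part. Of the 14 genes of bile acid synthesis, all tested, 2 were higher (background 1.6%) and none lower. Cyp7a1, the rate-limiting enzyme of bile acid synthesis, was at 1.09, 1.52 and 1.69 FPKM at Day 30, at 5.23, 5.36 and 1.94 FPKM at Day 45 and at 5.46, 5.66 and 4.34 FPKM at Day 60. It rose by 1.18 ± 0.27 (log2, SE, adjusted p = 0.0087), without overlap, although Day 45 replicate 3 lay close to Day 30. Its call was lost without Day 30 replicate 1 (adjusted p = 0.0761) and with the 9 samples alone (0.0584). Its mean had been 6.05 FPKM at Day 20 and 4.29 FPKM at Day 25, so that Day 30 was the lowest of these 5 ages. Cyp8b1, the 12-alpha-hydroxylase that leads to cholic acid, was at 129.6, 134 and 191 FPKM at Day 30 and at 251 to 383 FPKM later, and rose by 0.93 on the log2 scale (adjusted p = 0.00451). With the 4 libraries left out neither was called. Cyp27a1, which starts the alternative pathway, was at 149 to 166 FPKM at Day 30 and at 199 to 235 FPKM later, without overlap, and was not called (adjusted p = 0.105).

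Of 16 tested transporters 1 was higher and 2 lower (backgrounds 1.6% and 2.86%). Slc22a7 (Oat2), an organic anion transporter of the hepatocyte, was at 48.4, 60.9 and 64.7 FPKM at Day 30, at 23.5 to 34.1 FPKM at Day 45 and at 22.8, 19 and 6.62 FPKM at Day 60 (-1.48 ± 0.27, log2, SE, adjusted p = 0.000909). Ostb, a subunit of the basolateral bile acid exporter, fell by 0.78, from 1.38 to 2.01 FPKM to 0.273 to 1.22 FPKM. Ostb was tested only through Day 30, so that its selection favoured a fall. The carnitine transporter Slc22a5 rose by 0.67. With the 9 samples alone none of the 3 was called (0.0689 for Slc22a7). The calls of Ostb and Slc22a5 were also lost without Day 30 replicate 1 (adjusted p = 0.0779 and 0.162). The uptake transporter Slc10a1 (Ntcp) was at 164 to 251 FPKM in all 9 livers (adjusted p = 0.734), and the bile salt export pump Abcb11 at 12.6 to 65.2 FPKM (0.295). Slc13a2, a dicarboxylate transporter outside the list, rose from 0.408 to 0.636 FPKM to 2.02 to 2.76 FPKM, 4.91 times in the mean (adjusted p = 4.13e-10). Its level at Day 45 (2.48 to 2.72 FPKM) was already that of Day 60. Slc13a2 was tested only through Days 45 and 60, so that its selection favoured a rise.

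Some of the major urinary proteins rose. Of 21 listed members 19 were in the table and 18 were tested, and 8 were higher and none lower (background 1.6%), with a median difference of 1.40. The genes form a cluster of near-identical copies on chromosome 4, so that the reads of one member may have been given to another, and the values of single members are uncertain. Their sum was 3963, 4836 and 4202 FPKM at Day 30 and 8143, 9944 and 10159 FPKM at Day 45. At Day 60 it was 24645 and 17621 FPKM in replicates 1 and 2 and 4399 FPKM in replicate 3, which lay within the range of Day 30. With the 9 samples alone 1 member was called, and 3 with the 4 libraries left out.

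Mup20 (darcin), the male pheromone of mouse urine, did not follow the sum. It was at 221, 176 and 118 FPKM at Day 30, at 275, 497 and 345 FPKM at Day 45 and at 2668, 1679 and 1038 FPKM at Day 60, so that the third Day 60 liver was also above Day 45. Its rise was 2.22 ± 0.21 (log2, SE, adjusted p = 2.04e-08). At Day 20 it had been at 0.190 FPKM and at Day 25 at 13.5 FPKM. Mup21 was at 62.2 to 177 FPKM at Day 30 and at 185 to 461 FPKM later, and rose by 1.48 (adjusted p = 0.0702 with the 9 samples alone). Mup6, at 13.6 to 14.8 FPKM at Day 30, was at 162, 98.2 and 19.3 FPKM at Day 45 and at 292, 54.7 and 16.1 FPKM at Day 60. The highest value of each later age was in a pancreas-rich library, and the rise of 2.16 was called without both of them as well (adjusted p = 0.0158), but not with the 9 samples alone (0.325).

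In the third Day 60 liver Mup1 was at 1.13 FPKM against 87.4 and 51.0 FPKM in replicates 1 and 2, and Mup11 at 23.6 FPKM against 499.8 and 346 FPKM. Their log2 rises of 2.04 and 1.92 were called in the full comparison (adjusted p = 0.0298 and 0.0114), but the ranges overlapped. Without Day 30 replicate 1 neither was called (0.140 and 0.0643), and Mup1 was called in only 2 of the 9 fits that left out a library. Mup3, the third of the list, went from 801 to 1234 FPKM to 1089.9 to 2944 FPKM and did not pass (adjusted p = 0.0618).

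Among 17 other genes that are higher in male than in female mouse liver, 16 were tested and 4 were higher at the later ages (background 1.6%), with none lower. The list's median was 0.26, and -0.05 with the 4 libraries left out, so no direction is given for the list. C6, a complement component, was at 12.0, 18.6 and 21.7 FPKM at Day 30, at 35, 46.8 and 26.3 FPKM at Day 45 and at 98.1, 70.7 and 53.4 FPKM at Day 60 (1.51 ± 0.21, log2, SE, adjusted p = 2.12e-05). Cyp4a12b, a fatty acid omega-hydroxylase, rose by 1.48, from 30.9, 33.2 and 77.3 FPKM at Day 30 to 81.9 to 98.8 FPKM at Day 45 and 123 to 215 FPKM at Day 60. Its near copy Cyp4a12a, which may share reads with it, rose by 1.12, and Susd4, a regulator of complement, by 0.97. The call of Cyp4a12a was lost without Day 30 replicate 2 (adjusted p = 0.0521) and that of Susd4 without Day 30 replicate 1 (0.316) or Day 60 replicate 1.

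The first genes of that list did not pass. Cyp2d9 was at 803 to 1301 FPKM at Day 30 and at 499 to 1277 FPKM later (adjusted p = 0.881), Cyp7b1 at 34.9 to 55.8 and 27.7 to 155 FPKM (0.604), and the organic anion transporter Slco1a1 at 5.41 to 35.6 and 12.0 to 37.5 FPKM (0.459). For Cyp2d9 and Cyp7b1 the lowest value of the 9 livers was in Day 60 replicate 3, the liver with the low sum of major urinary proteins.

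Of 32 genes that are higher in the female liver, 29 were in the table and 16 were tested, 4 of them only through Day 30. At the later ages 5 were lower (background 2.86%) and none higher, with a median of -0.40. Of these 5, Sult2a1, Sult2a2 and Cyp3a44 were among the 4 tested only through Day 30, so that their selection favoured a fall. The sum over the list was 457 to 647 FPKM at Day 30 and 339 to 746 FPKM later. Sult2a1, a sulfotransferase for steroids and bile acids, was at 2.20, 0.819 and 2.92 FPKM at Day 30, at 0.0417, 0.181 and 0.0474 FPKM at Day 45 and at 0.0924, 0.0239 and 0.0676 FPKM at Day 60. The later mean was 0.0382 times that of Day 30 (-1.40 ± 0.21, log2, SE, adjusted p = 8.6e-05). Day 30 was late in its decline, since its mean had been 542 FPKM at Day 20 and 209 FPKM at Day 25. Sult2a2, beside it in the genome and similar in sequence, went from 1.11 to 4.70 FPKM to 0.0219 to 0.242 FPKM and fell by 1.71. Cyp3a44 fell by 0.95, from 0.850 to 2.34 FPKM to 0.0789 to 0.350 FPKM.

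Cyp2b9 took longer. It was at 3.53, 8.63 and 6.05 FPKM at Day 30, at 7.41, 2.60 and 2.46 FPKM at Day 45 and at 0.138, 0.275 and 0.540 FPKM at Day 60. The ranges of Day 30 and Day 45 overlapped and those of Day 45 and Day 60 did not. Its fall over both later ages was 1.44 (log2, adjusted p = 0.000316, and 0.0702 with the 9 samples alone). Cyp2c40 fell by 0.85, from 88.9 to 175 FPKM to 49.0 to 96.8 FPKM. Cyp2b13, which is close to Cyp2b9 in sequence, was at 1.18 to 1.67 FPKM at Day 30 and at 0.505 to 2.32 FPKM later and did not pass (adjusted p = 0.406).

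Of the growth hormone and IGF1 axis, 15 of 16 genes were tested and 1, Socs3, was lower (background 2.86%). Socs3 was tested only through Day 30, so that its selection favoured a fall. The hormone's receptor Ghr was at 79.9 to 100.4 FPKM at Day 30 and at 88.6 to 111 FPKM later (adjusted p = 0.518). Igf1, the growth factor it induces, was at 82.9 to 98.9 FPKM and at 66.3 to 105 FPKM later (0.50), and Stat5b at 3.43 to 8.62 and 5.93 to 9.75 FPKM (0.391). These 3 overlapped throughout. Socs3, a feedback inhibitor of cytokine signalling, was at 4.09 and 7.54 FPKM in 2 of the Day 30 livers and at 0.541 FPKM in the other, Day 30 replicate 1. It was at 0.506 to 0.958 FPKM later (log2 difference -1.29, adjusted p = 0.00244), and was not called without Day 30 replicate 3 (0.0519). Gadd45g, a stress-response gene, divided the Day 30 livers likewise, at 0.357 FPKM in replicate 1 and 4.68 and 4.39 FPKM in the others, against 0.372 to 0.763 FPKM later, and lost its call without replicate 2 (0.105) or 3. Cdkn1a (p21), an inhibitor of the cell cycle, fell by 0.90 (adjusted p = 0.0394), with a Day 45 replicate 3 value of 5.42 FPKM above all of Day 30, and lost its call in 6 of the 9 fits that left out a library, up to 0.124 without Day 45 replicate 1.

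On the log2(FPKM + 1) scale the largest fall among the genes that passed was that of 9030619P08Rik, an uncharacterised gene on chromosome 15 (NCBI37/mm9, 75258037 to 75262259, minus strand). It was at 23.6, 24.1 and 23.5 FPKM at Day 30, at 5.55, 9.0 and 8.45 FPKM at Day 45 and at 2.54, 2.82 and 0.562 FPKM at Day 60 (-2.35 ± 0.18, log2, SE, adjusted p = 6.96e-10). It had been at 52.9 and 53.9 FPKM at Days 20 and 25. Akr1c18, a 20-alpha-hydroxysteroid dehydrogenase that inactivates progesterone, was at 2.93, 3.99 and 5.97 FPKM at Day 30, at 0.200 to 0.678 FPKM at Day 45 and at 0.0352 to 0.0825 FPKM at Day 60 (-2.11 ± 0.20, adjusted p = 3.46e-08). Akr1c18 was tested only through Day 30, so that its selection favoured a fall, which is not so for 9030619P08Rik. For both genes the 3 ages were in order without overlap.

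Tff3, a secreted trefoil peptide, was at 158, 103 and 105 FPKM at Day 30 and at 13.3, 25.8 and 37.1 FPKM at Day 45. At Day 60 it was at 13 and 12.2 FPKM in 2 livers and at 102 FPKM in replicate 3, just under Day 30. Its fall was 2.24 ± 0.44 (log2, SE, adjusted p = 0.00167), and it was not called with the 9 samples alone (0.155) or with the 4 libraries left out (0.135). The exception was the liver with the low sum of major urinary proteins.

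Nat8, an N-acetyltransferase, was at 2.85, 2.33 and 4.06 FPKM at Day 30, at 10.6, 12.2 and 9.56 FPKM at Day 45 and at 32.7, 23.6 and 16.3 FPKM at Day 60, without overlap between the 3 ages (2.07 ± 0.18, log2, SE, adjusted p = 7.87e-09). Cml5, of the same family, rose by 1.33. Hspb1, a small heat shock protein, rose by 1.79, from 2.06 to 3.32 FPKM to 8.39 to 10.6 FPKM at Day 45 and 13.8 to 14.3 FPKM at Day 60. Plekhb1, a membrane-associated protein, rose by 1.38, from 2.74 to 3.84 FPKM to 5.36 to 13.1 FPKM. None of these 4 lost its call when any 1 of the 9 libraries was left out, but Cml5 lost it with the 9 samples alone (adjusted p = 0.0669).

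Enzymes that modify drugs and steroids changed in both directions. Of 55 tested cytochromes P450 of families 1 to 4 (of 82 in the table), 4 were higher and 5 lower (backgrounds 1.6% and 2.86%). Of the 55, 3 were tested only through Day 30, Cyp3a44 among them. Cyp2c67 was at 22.9 to 31.4 FPKM at Day 30 and at 44.6 to 69.0 FPKM later, a rise of 1.00 (log2, adjusted p = 7.14e-05). Of 42 tested conjugating enzymes (of 60), 4 were higher and 2 lower, the latter being Sult2a1 and Sult2a2, both tested only through Day 30. The glutathione transferase Gsta1 was at 4.53, 3.44 and 2.35 FPKM at Day 30, at 7.40, 6.91 and 6.83 FPKM at Day 45 and at 15.0, 15.9 and 29.4 FPKM at Day 60, a rise of 1.55. Its close relative Gsta2, which may share reads with it, rose by 1.60. Ugt3a1, a glycosyltransferase, went from 5.27 to 9.18 FPKM to 16.5 to 29.7 FPKM and rose by 1.45.

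Of 11 tested clock genes 1 was higher (background 1.6%). Nr1d1 (Rev-erb alpha), a repressor in the clock, was at 3.40, 6.61 and 5.22 FPKM at Day 30, at 16.8, 14 and 7.83 FPKM at Day 45 and at 27.7, 27.4 and 29.9 FPKM at Day 60 (1.74 ± 0.25, log2, SE, adjusted p = 3.98e-05). Arntl (Bmal1), whose transcription it represses, was at 1.34 to 3.86 FPKM at Day 30 and at 2.04 to 3.77 FPKM later (0.937). Dbp, an output gene of the clock, was between 0.538 and 0.781 FPKM at Day 30, between 0.471 and 0.771 at Day 45 and between 1.52 and 2.52 at Day 60, and did not pass over both ages together (0.439). The hour of collection was the same at these ages by the study's methods, and the values are those of that hour.

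The calls among genes of fat metabolism were each lost when 1 of the Day 30 livers was left out. Of 19 tested lipogenic genes 2 were higher (background 1.6%) and none lower. Scd1, the desaturase that makes oleate, was at 207, 466 and 533 FPKM at Day 30, at 983, 941 and 473 FPKM at Day 45 and at 1001, 1392 and 2179.6 FPKM at Day 60 (1.49 ± 0.29, log2, SE, adjusted p = 0.00188). Acly, which supplies cytosolic acetyl-CoA, rose by 1.08, from 13.5 to 43.5 FPKM to 37.8 to 95.8 FPKM. The lowest value of both was in Day 30 replicate 1 and the lowest later value in Day 45 replicate 3, the libraries low in long transcripts. Without Day 30 replicate 1 neither was called (0.0596 for Scd1 and 0.475 for Acly), and Acly was also lost without Day 45 replicate 1 or 2 or Day 60 replicate 3. Fasn was at 13.8 to 34.2 FPKM and 24.5 to 47.0 FPKM (adjusted p = 0.520).

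Of 24 tested genes of fatty acid oxidation and ketogenesis, 2 were higher and 1 lower (backgrounds 1.6% and 2.86%). Cpt2, the inner carnitine palmitoyltransferase, went from 24.1 to 29.7 FPKM to 33.4 to 40.0 FPKM without overlap and rose by 0.43. Acot1, a cytosolic thioesterase, rose by 0.76, and Fabp1, the liver fatty acid binding protein, fell by 0.65. The calls of Cpt2 and Fabp1 were lost without Day 30 replicate 1 (adjusted p = 0.155 and 0.505) and that of Acot1 without Day 30 replicate 3 (0.0825), and Fabp1 was called in only 2 of the 9 fits that left out a library. Cpt1a, the outer carnitine palmitoyltransferase, was at 18.9 to 44.8 FPKM in all 9 livers and did not pass (adjusted p = 0.824).

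None of 23 sterol genes, 17 zonated genes, 17 transcription factors and nuclear receptors, 14 interferon-stimulated genes, 15 genes of antigen presentation, 67 ribosomal proteins and 70 subunits of oxidative phosphorylation passed the test between Day 30 and the mean of the later ages. For Day 60 alone against Day 30, 3 zonated genes were higher and 1 was lower, and 1 interferon-stimulated gene, Usp18, was lower. At an unadjusted p under 0.05, 1455 of all 8071 genes passed. The pericentral genes Cyp2e1 and Glul and the periportal Ass1 overlapped throughout, as did Hnf4a, the nuclear receptor that maintains hepatocyte identity, at 30.5 to 84.6 FPKM and 53.9 to 99.3 FPKM. Of 14 genes of gluconeogenesis and the glucocorticoid response, 2 were lower (background 2.86%), the Gadd45g and Cdkn1a described above. Gadd45g was tested only through Day 30, so that its selection favoured a fall. Pck1, G6pc and Tat did not pass (adjusted p = 0.667, 0.986 and 0.723).

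Of 16 tested acute-phase proteins 5 were lower (background 2.86%) and none higher. Apcs (serum amyloid P) was at 101, 119.8 and 108 FPKM at Day 30, at 39.8, 58.1 and 56.7 FPKM at Day 45 and at 38.3, 40.4 and 53.4 FPKM at Day 60 (-1.20 ± 0.21, log2, SE, adjusted p = 0.000358). Saa2 and Saa3, serum amyloid A proteins, each fell by 0.87, Lcn2 (lipocalin 2) fell by 0.93 and Orm2 by 0.59. Without Day 30 replicate 1 Saa2 (adjusted p = 0.0986), Saa3 (0.257) and Lcn2 were no longer called. Saa2 and Saa3 were also lost without Day 30 replicate 2, Saa3 without Day 45 replicate 1 or 2 or Day 60 replicate 1, and Lcn2 without Day 30 replicate 3 (0.0604). Apcs was the 1 member called with the 9 samples alone. Haptoglobin (Hp), at 2195 to 3131 FPKM at Day 30 and 1705 to 2659 FPKM later, and Orm1 did not pass.

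Of 6 tested imprinted and oncofetal genes 1 was lower and 1 higher (backgrounds 2.86% and 1.6%). The lower one, H19, was tested only through Day 30, so that its selection favoured a fall. The imprinted long RNA H19 was at 1.35, 3.40 and 1.85 FPKM at Day 30 and at 0.0889 to 0.696 FPKM later, and fell by 1.08 (adjusted p = 0.00583, and 0.0687 without Day 30 replicate 2). Slc38a4, an imprinted amino acid transporter, rose by 0.85 (adjusted p = 0.0234, and 0.338 without Day 30 replicate 1), and lost its call also without Day 45 replicate 1 or 2. Alpha-fetoprotein (Afp) was at 3.54, 7.79 and 1.95 FPKM at Day 30 and at 0.280 to 1.99 FPKM later and did not pass (0.151). Of 16 tested stellate cell and matrix genes 1, elastin (Eln), was lower (background 2.86%). It was at 3.15, 6.12 and 5.50 FPKM on Day 30, between 1.82 and 2.10 on Day 45 and between 0.653 and 1.18 on Day 60 (-1.30 ± 0.21, log2, SE, adjusted p = 0.000224). Col1a1 and Col3a1 did not pass (0.336 and 0.179). Apoa1, the apolipoprotein of HDL, fell by 0.68 (adjusted p = 0.0453, and 0.421 without Day 30 replicate 1, where it was highest), and lost its call in 5 of the 9 fits that left out a library.

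**Figure D4:**
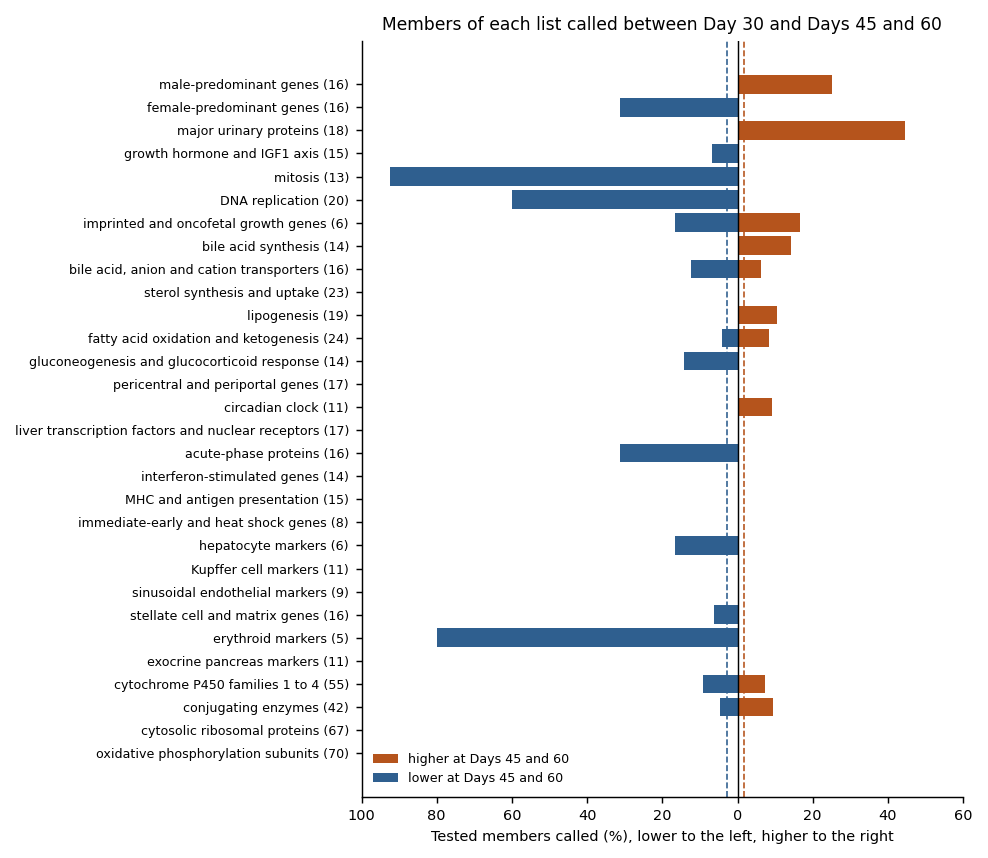
Percent of the tested members of each list (number in parentheses) that were higher (orange, right) or lower (blue, left) at Days 45 and 60 than at Day 30 by limma, for lists with at least 5 tested members. The dashed lines mark the shares over all 8071 genes, 1.6% higher and 2.86% lower. Among lower shares mitosis is furthest from its line, with 12 of 13, although these 13 could be tested only through Day 30, and among higher shares the major urinary proteins, with 8 of 18.

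Day 45 and Day 60 differed from each other in 24 genes, 17 higher at Day 60 (0.211%) and 7 lower (0.0867%), and 23 of these 24 did not overlap. All genes shifted upward by a median of 0.15 (log2) between these ages, and by 0.03 with a common upper quartile, where 16 were higher and 11 lower. With each library scaled to the same summed FPKM there were 5 of each. With the 9 samples alone limma called none, with 418 genes at an unadjusted p under 0.05. In all, 360 genes were called between Day 30 and the mean of these ages. Of them, 280 were further from Day 30 at Day 60 than at Day 45, 116 of the 129 higher and 164 of the 231 lower ones. Beside this, 6207 of all 8071 genes were higher at Day 60 than at Day 45.

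Mup20 rose by 2.21 from Day 45 to Day 60, Csad by 1.61 and Gsta1 by 1.33 on the log2 scale, on top of their earlier rises. Alas1, the first enzyme of haem synthesis in hepatocytes, was at 8.78 to 17.2 FPKM at Day 30 and 9.92 to 11.9 FPKM at Day 45 and at 107, 18.2 and 50.5 FPKM at Day 60, a rise by 1.99. Its value was highest in the pancreas-rich library, and without that library its adjusted p was 0.0484. Bhlhe40, a repressor linked to the clock, was at 2.46 to 5.65 FPKM at Day 45 and at 8.13 to 13.8 FPKM at Day 60, a rise by 1.19, with 4.86 to 6.30 FPKM at Day 30. Without Day 45 replicate 3 it was not called (adjusted p = 0.345), nor without Day 45 replicate 2 or Day 60 replicate 1 or 2, and Gsta1 was not called without Day 60 replicate 3 (0.114) or Day 45 replicate 2 or 3.

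Igfbp1, a binding protein of IGF1 that insulin represses, was at 22.4 to 44.9 FPKM at Day 30, at 32.4, 37.9 and 26.6 FPKM at Day 45 and at 3.62, 6.73 and 20.1 FPKM at Day 60, a fall by 1.86 from Day 45. Cyp2b9 fell by 1.85 and 9030619P08Rik by 1.62. Lcn2 was at 4.89 to 8.17 FPKM at Day 45 and at 3.60, 1.17 and 0.980 FPKM at Day 60, a fall by 1.36. Usp18, which removes the ubiquitin-like Isg15, was at 4.83, 8.03 and 5.50 FPKM at Day 45 and at 2.21, 2.27 and 2.45 FPKM at Day 60, a fall by 1.08, with 4.78 to 6.15 FPKM at Day 30. Isg15 did not pass (adjusted p = 0.400) and was at 6.83 to 10.6 FPKM at Day 45 and at 2.89 to 4.61 FPKM at Day 60. Igfbp1 was not called without Day 60 replicate 1 (adjusted p = 0.257) or any of Day 45 replicates 1 to 3 or Day 60 replicate 2, Lcn2 without Day 60 replicate 2 (0.130) or 3 or Day 45 replicate 2, and Usp18 without Day 45 replicate 2 (0.277) or any of 4 other libraries. Mup20, Csad, Alas1, Cyp2b9 and 9030619P08Rik kept their calls with each of the 6 libraries of Days 45 and 60 left out in turn.

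**Figure D5:**
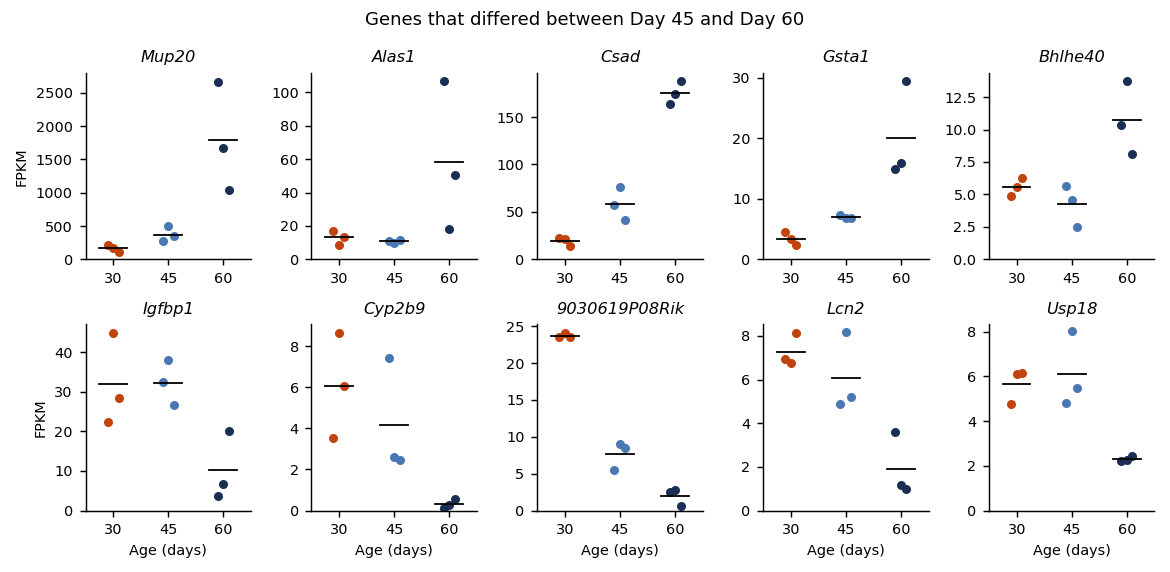
FPKM of the 5 genes with the largest rise (upper row) and the 5 with the largest fall (lower row) from Day 45 to Day 60, in each of 3 livers at Days 30, 45 and 60 (points, linear axes from 0), with the mean of each age as a line. Alas1, Bhlhe40, Igfbp1, Cyp2b9, Lcn2 and Usp18 overlap between Day 30 and Day 45 and are apart at Day 60.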

How the data were processed

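Livers of 3 male mice at each of 12 ages were measured by RNA-Seq. The authors mapped reads to NCBI37/mm9 with TopHat 1.2.0 and estimated abundance with Cufflinks 1.0.3 (versions from the submitters' processing notes). The deposited values are FPKM per gene symbol, on a linear scale, without read counts, so depth is known only as a relative value and no counting interval is given. How reads of near-identical genes were divided is not given in the sources used here.

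Genes reaching 1 FPKM on average at Day 30 or over Days 45 and 60 were tested as log2(FPKM + 1) with limma 3.58.1 in R 4.3.3, with 1 mean per age over all 36 samples, a variance trend and Benjamini-Hochberg adjustment over the 8071 genes. No count test was run. Differences are on that scale, which understates changes of low genes. The 3 samples of an age are separate mice. A two-sided adjusted p under 0.05 counts as passed. Scripts were tested on simulated data. The members and the 36 gene lists were chosen with earlier results of these data known.

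Named genes are the 15 largest rises and 15 largest falls from Day 30 to Days 45 and 60 among genes that passed without overlap of the samples, up to 4 passing members of each list with the largest differences, the first 3 members of each list, and the 5 largest rises and falls from Day 45 to Day 60 that passed without overlap. Orm2, Cyp2c40, Xist and Eif2s3y are named outside this rule, after their values were seen. Positions are from GENCODE M1 on NCBI37/mm9, matched by symbol for all 150 named genes, and promoters from RefSeq on GRCm38.p6. Same-numbered samples of Days 45 and 60 deviated together from their age means (r from 0.584 to 0.846 over 3 pairs), a pairing seen only in the data, while those of Day 30 did not with either age (1 of 3 pairs each over 0.1). Alternatives were a pseudocount of 0.1, other filters, other scalings, the 9 samples alone, no variance trend, the replicate number as a block, and each of the 9 libraries left out. Leaving out the pancreas-rich libraries and those low in long transcripts, and removing the trend with length and GC content (lengths for 7910 genes, 98%), were chosen after seeing the data. Python 3.11.15 with pandas 2.3.3 and matplotlib 3.10.9 made tables and figures.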

Additional observations from a re-analysis of the deposited data

Results flagged for a closer look

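In the 6 samples of Days 45 and 60, a sample far from the others was looked for in 102 sets of values (Dixon's ratio above 0.625 on the log2 scale), and 20 were found. By chance this ratio is passed in about 1 in 20 sets when all 6 samples come from 1 group. Here they come from both ages and the sets are not independent, so that this rate cannot be set against the 20 found. Of the 20, 15 concern Day 45 replicate 3, a library low in long transcripts (-0.160 on the log2 scale per doubling of length), whose part in these values was not tested.

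It was the highest of the 6 for the cell division genes Birc5 (1.60 FPKM), Cdc20 (2.31), Cdca3 (1.87), Cdk1 (0.904), Plk1 (0.900), Rrm2 (1.08), Stmn1 (7.06) and Ube2c (2.51), for Cdkn1a (5.42) and for Akr1c18 (0.678). It was the lowest for Cyp7a1 (1.94), Slc22a5 (2.33) and Slc38a4 (91.0), for the sum of imprinted and oncofetal genes (95.3) and for the sum of clock genes (55.1 FPKM).

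Other samples that stood apart were Day 60 replicate 2 for Acot1 (31.4 FPKM, highest), for Slc13a2 (2.02, lowest) and for the sum of sinusoidal endothelial markers (102, highest), Day 45 replicate 2 for Cyp8b1 (383, highest) and Day 60 replicate 3 for Slc22a7 (6.62 FPKM, lowest).

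Day 60 differed from Day 45, by limma, in Mup20 (2.21, log2), Alas1 (1.99), Csad (1.61), Gsta1 (1.33) and Bhlhe40 (1.19), which were higher, and in Igfbp1 (-1.86), Cyp2b9 (-1.85), 9030619P08Rik (-1.62), Lcn2 (-1.36) and Usp18 (-1.08), which were lower.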

How the results depend on the processing

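Of 66 named genes called between Day 30 and Days 45 and 60, 29 kept their call under all 23 alternatives that gave them a value, and none changed direction. With the 9 samples alone 34 kept it, and with the 4 doubtful libraries left out 42. In each comparison the number of calls was lowest with the 9 samples alone. For Day 30 against Days 45 and 60 (360 genes) it was 86 with the 9 samples alone, 234 with a minimum of 5 FPKM, 190 without the pancreas-rich libraries, 133 without all 4 libraries, 138 with the length and GC trend removed in the 9 samples, and 211 to 518 with 1 library left out. For Day 45 (115 genes) these were 20, 61, 44, 40 and 51, and 46 to 156 with 1 left out. For Day 60 (448 genes) they were 115, 267, 259, 189 and 166, 248 without the libraries low in long transcripts, and 216 to 724 with 1 left out. For Day 45 against Day 60 (24 genes) they were 0 with the 9 samples alone, also with the trend removed, 43 with the trend removed in all samples, 49 without a filter, 14 with a pseudocount of 0.1, 10 with equal summed FPKM, 7 without the pancreas-rich libraries, 12 without those low in long transcripts, 9 without all 4, and 10 to 37 with 1 left out. Fewer samples or genes were tested in some of these, and the cause was otherwise not tested. Over 9 same-numbered pairs between ages r was -0.472 to 0.846, over 0.1 in 5, and 10 of 18 best matches had the same number. The replicate number as a block gave 430, 133, 531 and 32 genes and changed none of the 66 and 10 named calls. Low genes and the Day 30 livers are the least precise.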
